A study of Homo sapiens with 5 samples.

Results

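Prostatic acid phosphatase is encoded by ACPP (listed as ACP3 in RefSeq), and the chromatin around this gene was described in VCaP, a cell line established from a human prostate cancer. The locus is the 500 kb window chr3:131700000-132200000 of build hg19, which holds ACPP from 132.036 to 132.087 Mb on the plus strand. CPNE4, a minus-strand gene, lies on its upstream side. The window was chosen from these same data by its long run of H3K27ac, so its H3K27ac level is a description and no test is given. A total of 219 peaks overlapped it, out of 363159 on the autosomes and chromosome X in all 4 peak lists. There were 38 and 45 H3K27ac peaks in replicates 1 and 2, and 67 and 69 H3K4me1 peaks.

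Peaks come from chromatin immunoprecipitation with sequencing against acetylated lysine 27 of histone H3 (H3K27ac) and monomethylated lysine 4 (H3K4me1), with 2 libraries per mark. The input library, made without an antibody, is not analysed here. All libraries come from this 1 line, cultured in serum-containing medium, with no treatment, genotype change or time course named. Whether the replicates of a mark came from different cultures is not stated in the labels, and their spread may be technical only.

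ACPP is made by the secretory luminal cells of the prostate, and its product is released into seminal fluid. The gene is known as responsive to androgen, and the protein in blood was an early marker of prostate cancer. A membrane-bound form acts as an ectonucleotidase in pain-sensing neurons. CPNE4 encodes a copine, one of a family of calcium-dependent phospholipid-binding proteins. H3K27ac marks active promoters and active enhancers. H3K4me1 marks enhancers and the flanks of promoters, and is typically low at the start of an active gene itself. In RefSeq (GRCh38.p14) CPNE4 is the nearest protein-coding gene upstream of ACPP, with 0 protein-coding genes between them, and DNAJC13 is the next one downstream. Positions from that build were not carried over to hg19, so no peak was assigned to a start of CPNE4 or DNAJC13.

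The ACPP promoter is shown because the start site of the gene turned out to lie inside a broad acetylated peak. These are the 250 bases before the RefSeq start, plus strand, chr3:132317157-132317406 of GRCh38.p14, a different build from that of the peaks. Capitals mark the only match among 9 motifs searched on both strands, TATTTAC, a form of the forkhead motif.

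ACPP promoter: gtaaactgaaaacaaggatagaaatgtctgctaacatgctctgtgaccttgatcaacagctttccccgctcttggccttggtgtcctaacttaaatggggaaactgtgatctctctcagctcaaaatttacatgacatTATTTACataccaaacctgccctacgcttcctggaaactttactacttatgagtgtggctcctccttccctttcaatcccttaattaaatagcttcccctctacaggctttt

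The match lies 112 to 106 bases before the start, and 2.39% of 35116 RefSeq promoters of the same length hold this motif. The other motifs searched were AGAACA (the androgen receptor half-site, in 12.4% of promoters), the full androgen response element (0.00285%), TGTTTAC (2.98%), CCGGAAGT (3.42%), GGAAGT (19.5%, its letters also part of the longer ETS motif), GATAA (20.4%), TATAAA (10.7%) and CCAAT (32.0%). None of these was found in the 250 bases shown. The ACPP promoter is poor in CpG, with 2 CpG and 42.0% G and C, against medians of 11 CpG and 58.0% over all promoters. CPNE4 has 3 start sites in the table. They hold 0, 0 and 19 CpG, and GATAA and CCAAT had 3 and 2 matches over them. A match is a description of letters, and shows no binding.

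Both marks covered more of the locus than of the genome, and most of this lay in a part of the window. H3K27ac peaks covered 96.8 and 91.9 kb of the window in replicates 1 and 2, or 19.4 and 18.4% of its bases. Over the genome the same lists covered 2.48 and 2.30%, so the locus held 7.79 and 7.99 times that level. H3K4me1 covered 53.0 and 86.7 kb, or 10.6 and 17.3%, against 2.46 and 3.80% over the genome, which is 4.31 and 4.56 times as much. Among 29401 windows of this length, placed every 100 kb, the median held 8.03 and 7.21 kb of H3K27ac and 9.23 and 15.6 kb of H3K4me1. Fewer bases of H3K27ac were found in 99.9% of windows for both libraries, and fewer of H3K4me1 in 99.0 and 99.6%. These shares describe a window that was picked for its acetylation. Sequencing depth is unknown for every library, since the lists hold positions only.

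**Figure D1:**
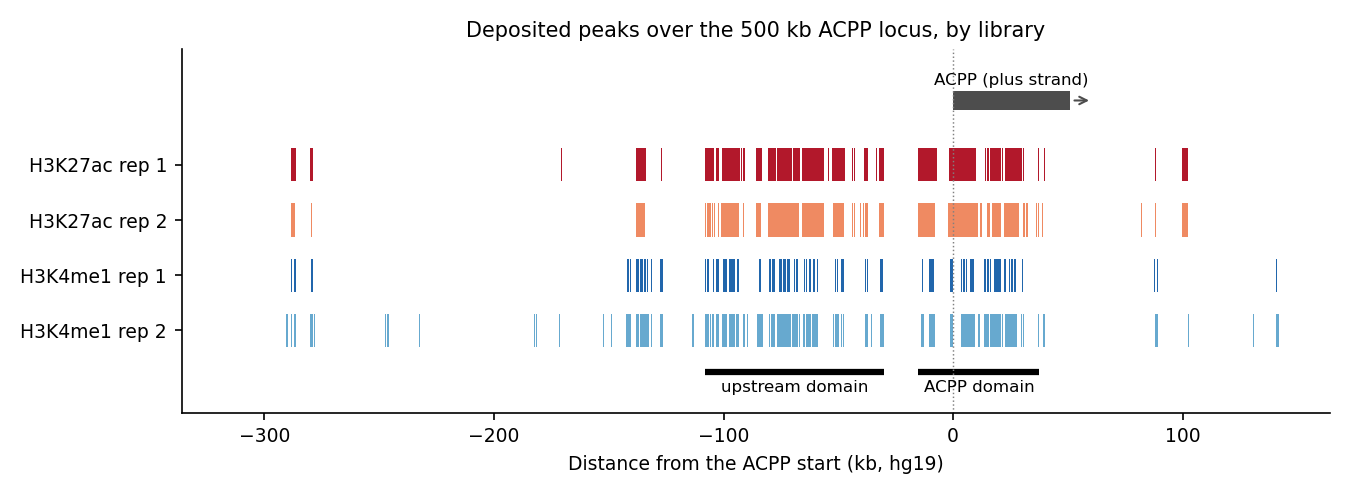
Peaks of each library over the 500 kb window, plotted as bars by distance from the ACPP start in kb. The 4 rows are the libraries, the grey bar is ACPP, and the black bars are the H3K27ac domains described in the text, at -108.0 to -30.0 kb and -15.1 to 37.5 kb.

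The ACPP start lay within 1 broad H3K27ac peak in both libraries. In replicate 1 this peak was chr3:132034052-132046132, 12081 bp wide, and in replicate 2 it was chr3:132034297-132046598, 12302 bp wide. It ranked 41st of 54763 and 30th of 64845 peaks by width in its list. The peak was lopsided, reaching 1948 and 1703 bp upstream of the start but 10133 and 10599 bp into the gene, so that 83.9 and 86.2% of it lay downstream. The start is known here to the nearest 1000 bp only, which affects the reach by up to 500 bp and not the widths.

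H3K4me1 bordered the start and was missing just downstream of it. In replicate 1 the nearest upstream H3K4me1 peak (331 bp) ended 92 bp before the start and the next one began 3554 bp after it. In replicate 2 the upstream peak (1487 bp) ended 30 bp before the start and the next began 3581 bp after it. The stretch without H3K4me1 was thus 3645 and 3610 bp long in the libraries, from 132035909 to 132039553 and from 132035971 to 132039580. Its ends thus lay within 62 and 27 bp of each other in the H3K4me1 libraries. When the same number of widest peaks was kept in every list, the stretch grew to 5074 bp in replicate 1 and stayed at 3610 bp in replicate 2. Given the rounding of the start, it cannot be said whether the start sits in this stretch or just before it, among the last H3K4me1 peaks. A base without a peak may still carry the mark below the detection of these lists.

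Within 2.5 kb on either side of the start the marks differed in the same way in each library. H3K27ac filled 2500 and 2500 bp of the downstream side and 1948 and 1936 bp of the upstream side. H3K4me1 filled 0 and 0 bp downstream and 998 and 1487 bp upstream. These sides are taken from the rounded start, and a start up to 500 bp earlier would put some H3K4me1 downstream. No other position of the start was tried. In total H3K27ac covered 4.44 ± 0.00849 kb (mean ± SD, n = 2) of these 5 kb and H3K4me1 1.24 ± 0.346 kb (n = 2). Both H3K4me1 values were below both H3K27ac values, and how many other gene starts show this was not counted. The 2 libraries per mark cannot give an exact permutation p below 0.333, and none was computed for a locus picked from the data.

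Further into the same acetylated peak H3K4me1 returned. The replicate 1 H3K27ac peak held 7 H3K4me1 peaks of replicate 1, over 38.0% of its length, and 2 of replicate 2, over 60.6%. The replicate 2 H3K27ac peak gave 37.4 and 59.5%. The widest replicated H3K4me1 region of the window began here, at chr3:132039554-132045416 (5863 bp), where replicated means that peaks of both libraries were merged and each library had at least 1. It was 1 peak of 5836 bp in H3K4me1 replicate 2 and 5 separate peaks in replicate 1, the widest of them 1840 bp. Its ends differed between the H3K4me1 libraries by 27 and 275 bp, where the median difference over 474 replicated H3K4me1 regions of at least 5 kb was 128 bp.

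A stretch of this kind was common among broad acetylated peaks. Of the H3K27ac replicate 1 peaks of at least 10 kb, 42.5% of 87 had an inner stretch of at least 3 kb without H3K4me1 replicate 1, bordered by H3K4me1 on both sides, and 41.4% had one without H3K4me1 replicate 2. For H3K27ac replicate 2 the shares were 46.7 and 45.0% of 60 peaks. The peak at the ACPP start had such a stretch in each of the 4 pairings. How many other peaks had one in every pairing was not counted.

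**Figure D2:**
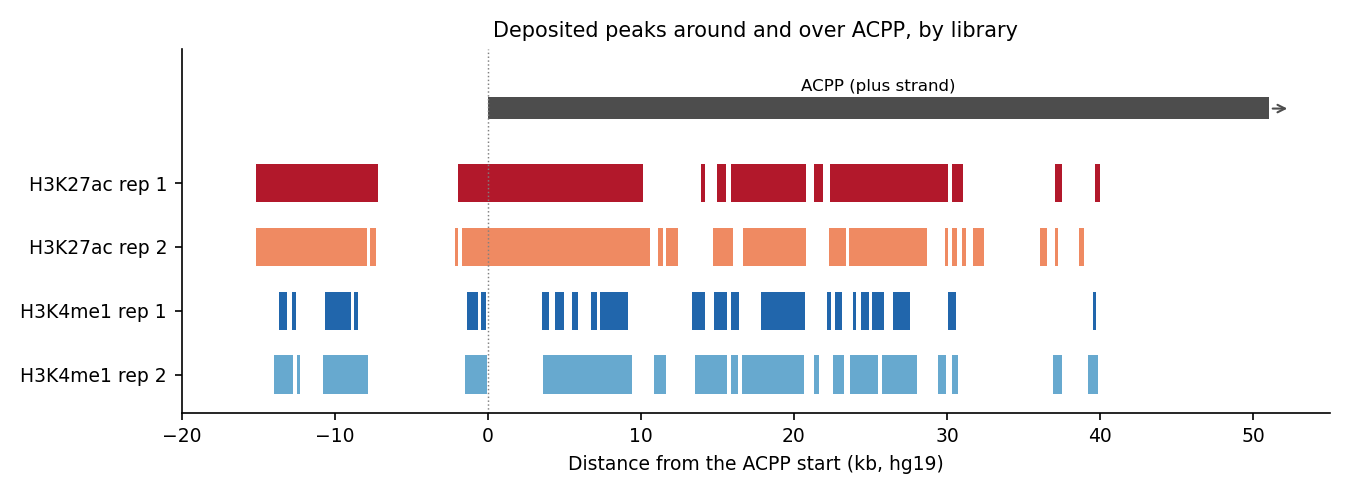
Peaks of each library from 20 kb before to 55 kb after the ACPP start, plotted as bars by distance from the start in kb, with ACPP as the grey bar. H3K27ac runs unbroken from about the start to 10.1 and 10.6 kb. H3K4me1 is absent from the rounded start to 3.55 and 3.58 kb, and no peak lies beyond 39.96 kb inside the gene.

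Over ACPP itself the marks covered the front of the gene and left its end bare. H3K27ac covered 25.6 and 25.7 kb of the gene, or 50.2 and 50.3%, a difference between libraries of far less than 1 percentage point. H3K4me1 covered 12.8 and 20.6 kb, or 25.04 and 40.4%. The mean was 50.3 ± 0.0984% for H3K27ac and 32.7 ± 10.9% for H3K4me1 (mean ± SD, n = 2 each). Both H3K4me1 libraries were below both H3K27ac libraries, at a locus picked for its H3K27ac. How many other genes show this was not counted. The equal H3K27ac totals came from partly different bases, since 73.5% of those covered in either library were covered in both.

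The gene was cut into 5 parts of 10.2 kb to follow the marks from start to end. H3K27ac covered 99.3 and 100% of part 1, 52.6 and 63.3% of part 2, 87.8 and 68.1% of part 3, 11.2 and 20.2% of part 4 and 0 and 0% of part 5. H3K4me1 covered 35.3 and 57.2% of part 1, 46.6 and 69.99% of part 2, 41.4 and 61.7% of part 3, 1.88 and 13.0% of part 4 and 0 and 0% of part 5. By these parts H3K27ac was fullest next to the start, while each H3K4me1 library was fullest in part 2. This depends on the cuts, since part 1 includes the stretch without H3K4me1 after the start. In bins of 5 kb, H3K4me1 was fullest inside part 1, in the bin that began 4 kb after the start (60.2 and 100%). The bin that began at 14 kb, in part 2, had 53.5 and 89.9%. All 4 libraries dropped between parts 3 and 4.

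**Figure D3:**
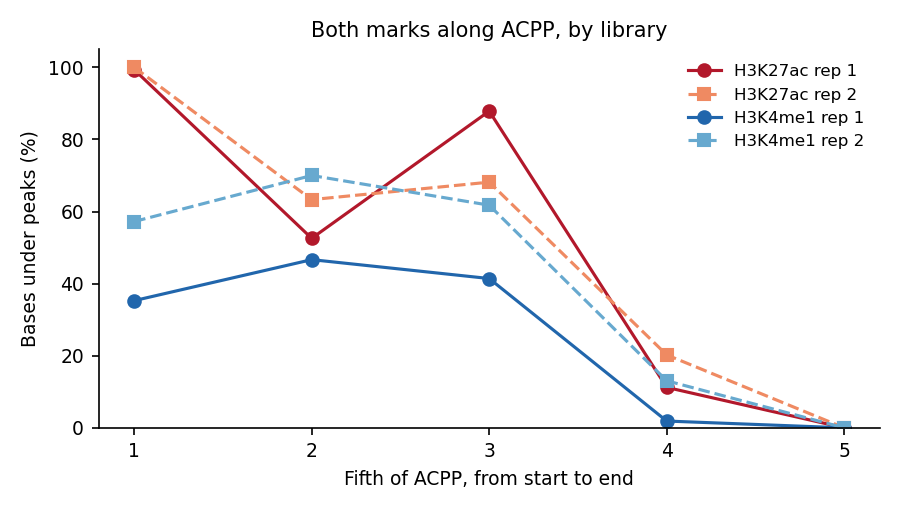
Percentage of bases under peaks in each of 5 equal parts of ACPP, numbered from start to end, with 1 line per library. H3K27ac goes from 99.3 and 100% in part 1 to 0% in part 5. In between it rises from 52.6 and 63.3% in part 2 to 87.8 and 68.1% in part 3. Among these parts H3K4me1 is highest in part 2, at 46.6 and 69.99%.

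No library had a peak in the last 11.0 kb of ACPP. The last peak ended 39.96 and 38.9 kb after the start for H3K27ac and 39.7 and 39.8 kb after it for H3K4me1. From there to the gene end, 11.0 and 12.1 kb were free of H3K27ac and 11.3 and 11.2 kb free of H3K4me1. The free stretch went on past the gene, and the next H3K27ac peaks lay 47.96 and 43.0 kb away and the next H3K4me1 peaks 47.7 and 47.9 kb away. These last H3K27ac peaks were narrow, at 283 and 324 bp, against the 12.1 and 12.3 kb peak at the start. They were different peaks, each without a match in the other H3K27ac library, and the last replicated H3K27ac region ended 37.5 kb after the start. The last H3K4me1 peaks overlapped each other.

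Within ACPP and 10 kb on either side of it there were 10 and 17 H3K27ac peaks and 21 and 15 H3K4me1 peaks. Their widths ran from 227 to 12081 bp and from 178 to 12302 bp for H3K27ac, and from 192 to 2866 bp and from 373 to 5836 bp for H3K4me1. Besides the peak at the start, 2 wide replicated H3K27ac regions lay in the gene. The region at chr3:132050729-132056818 (6090 bp) carried H3K4me1 over 69.2 and 89.5% of its length in H3K4me1 replicates 1 and 2, and that at chr3:132058299-132066066 (7768 bp) over 41.9 and 68.8%. They held 2 of the 5 widest replicated H3K4me1 regions of the window, chr3:132059640-132064013 (4374 bp) and chr3:132052597-132056704 (4108 bp).

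The largest share of H3K27ac at the locus lay upstream of ACPP and not on it. Domains were built by joining replicated H3K27ac regions less than 12.5 kb apart. The domain with most H3K27ac in the window was chr3:131927983-132005973, which spans 78.0 kb and ends 30.0 kb before the ACPP start. It held 14 regions with 50.3 kb of H3K27ac and ranked 7th of 27436 domains of the genome, and 7th in each H3K27ac library taken alone. By span it ranked 21st. H3K27ac covered 50.1 and 46.5 kb of it (64.2 and 59.6%), and H3K4me1 25.7 and 38.7 kb (32.9 and 49.6%). The means were 48.3 ± 2.53 kb for H3K27ac and 32.2 ± 9.19 kb for H3K4me1 (mean ± SD, n = 2 each). The domain was built from H3K27ac regions and picked for its H3K27ac, so the lower H3K4me1 values are a description only.

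Acetylation in this upstream domain came mostly from a few broad peaks. Of its 20 and 21 H3K27ac peaks, 6 and 5 were at least 3 kb wide, and these added up to 36.3 and 32.0 kb. The others went down to 238 and 198 bp. H3K4me1 had 28 peaks there in each library, from 217 to 2532 bp and from 283 to 5682 bp, of which 0 and 1 reached 3 kb. The 2nd widest replicated H3K4me1 region of the window, chr3:131959900-131965581 (5682 bp), lay in this domain. It was 1 peak in H3K4me1 replicate 2 and 3 peaks in replicate 1. The H3K4me1 libraries thus had as many peaks as each other in the domain, but these were not all the same peaks. All 28 of replicate 1 overlapped a peak of replicate 2, while 20 of the 28 of replicate 2 overlapped one of replicate 1. The libraries also differed in peak widths.

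Of the 5 widest replicated H3K27ac regions of the window, 3 were in the upstream domain. The region at chr3:131959055-131968955 (9901 bp) was 1 peak in replicate 2 and 2 peaks in replicate 1. Its ends differed between libraries by 314 and 301 bp, and it carried H3K4me1 over 60.8 and 87.9% of its length. The region at chr3:131970284-131979686 (9403 bp) was 1 peak in each library, and its ends differed between them by 4 and 14 bp. Over 1152 replicated H3K27ac regions of at least 5 kb in the genome, the median difference at an end was 110 bp. H3K4me1 covered 33.1 and 61.6% of this region, in 5 peaks in each library. The region at chr3:131935103-131942958 (7856 bp) differed by 7 and 305 bp at its ends and carried H3K4me1 over 68.4 and 82.4%. The ends of these regions were thus closer than the median difference in some cases and farther in others. The other 2 of the 5 widest were the region at the ACPP start (12752 bp when merged) and the one between the domain and the gene, described next.

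Between the upstream domain and ACPP the chromatin was bare, then acetylated again. A stretch of 14.9 kb after the domain held 0 bp of either mark in all 4 libraries. The region at chr3:132020861-132028825 (7965 bp) followed, at -15.1 to -7.18 kb from the ACPP start. It was 1 peak of 7950 bp in H3K27ac replicate 1 and peaks of 7252 and 381 bp in replicate 2, with H3K4me1 over 34.4 and 55.4% of it. Another 5.02 kb without any peak led to the broad peak at the start.

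This region and those over ACPP formed a second H3K27ac domain, chr3:132020861-132073504, which ranked 18th of 27436 with 36.0 kb of H3K27ac in 6 regions. H3K27ac covered 35.2 and 34.9 kb of it and H3K4me1 16.3 and 25.8 kb. Both domains together span 26.1% of the window and held 88.2 and 88.6% of its H3K27ac and 79.2 and 74.4% of its H3K4me1. The bare stretch between them is longer than the 12.5 kb joining distance. When regions within 20 kb were joined, a distance chosen after seeing the data, the locus became 1 domain with 86.3 kb of H3K27ac over 145.5 kb, 2nd of 22759. It also ranked 2nd in each H3K27ac library alone, with 90.4 and 81.7 kb, although in replicate 1 it began farther upstream, at 131897669, and took in the 4602 bp peak there.

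**Figure D4:**
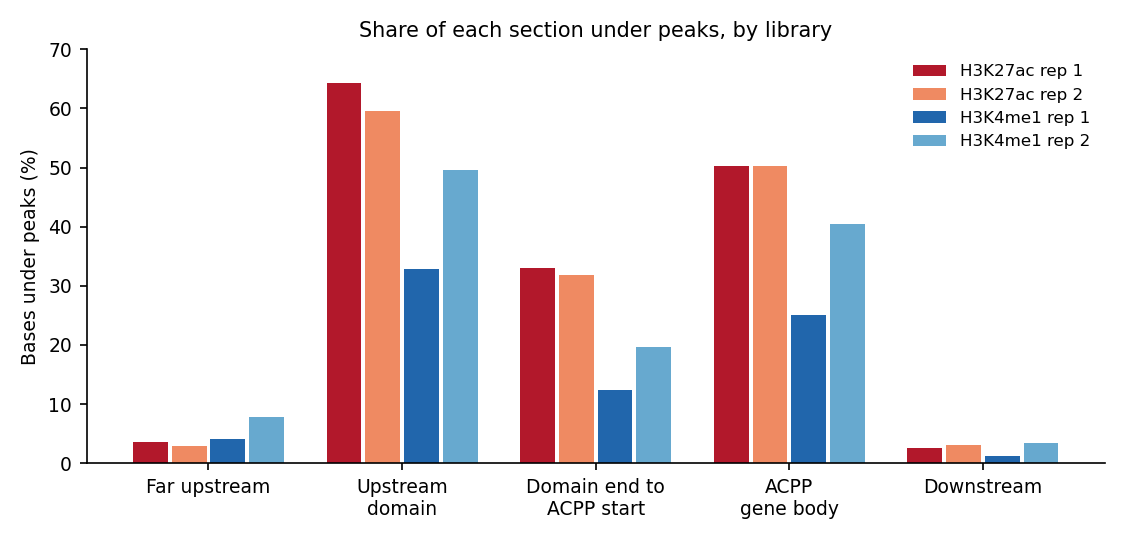
Percentage of bases under peaks in 5 sections of the window, with 1 bar per library. The upstream domain (64.2 and 59.6% for H3K27ac) and ACPP (50.2 and 50.3%) stand above the far upstream (3.65 and 2.88%) and downstream (2.53 and 3.15%) sections.

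Inside the upstream domain nearly all H3K4me1 lay on acetylated bases, while the reverse did not hold. Of replicated H3K4me1 there, 97.4% was within replicated H3K27ac, against 38.8% over the genome. Of replicated H3K27ac, 69.6% carried H3K4me1, against 51.7% over the genome. The high H3K4me1 figure belongs to a span delimited by H3K27ac. By library, 50.3 and 72.9% of the domain's replicated H3K27ac carried H3K4me1 of replicates 1 and 2. Among the 122 domains of the genome with at least 20 kb of H3K27ac, the medians were 54.3 and 66.97%, and 48 and 75 of them had less than this domain. Its H3K4me1 share was thus near the middle of its class. The domain over ACPP had 41.9 and 64.9%, with 30 and 54 of the 122 below it.

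Stretches of at least 3 kb without H3K4me1 in either library numbered 9 from the upstream domain to the end of ACPP. The one at the ACPP start, 3.58 kb long, was acetylated over 100% of its length in both H3K27ac libraries. In the other 8, H3K27ac covered between 0 and 28.3%. The longest in the upstream domain ran 9.28 kb, from 131988384 to 131997661, with 5 and 6 short H3K27ac pieces over 28.2 and 23.6% of it. Of these 9 stretches, those away from the start of the gene were thus also mostly without H3K27ac. For some this was partly set in advance. The longest of the 9 spans the bare stretch between the domains, which had to exceed the joining distance, and the last was cut at the gene end. How much H3K27ac such stretches hold over the genome was not counted.

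**Figure D5:**
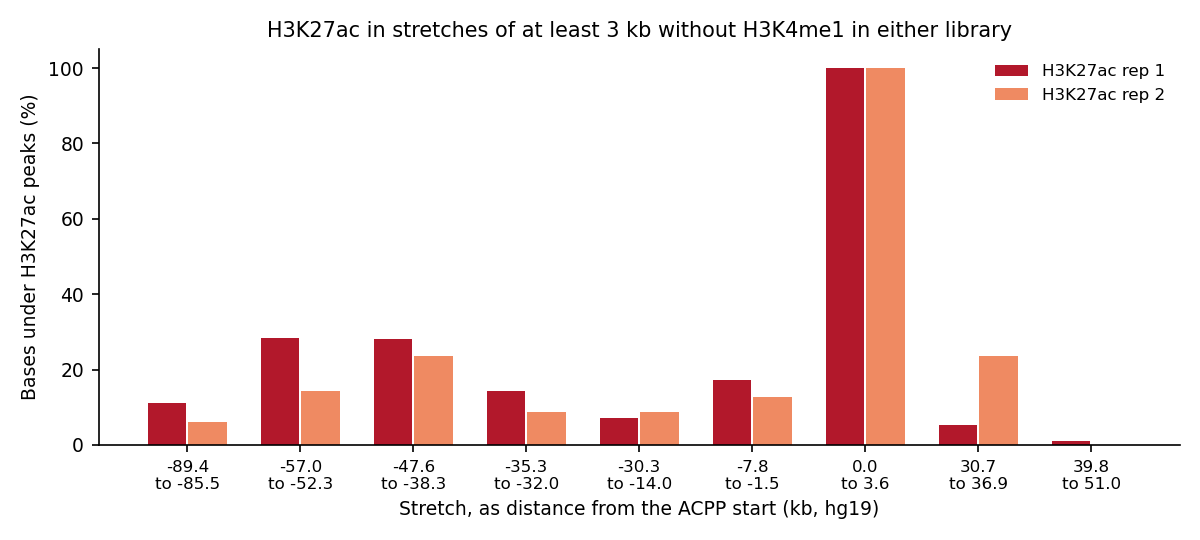
Percentage of bases under H3K27ac peaks in the 9 stretches of at least 3 kb without H3K4me1, ordered by position and named by distance from the ACPP start in kb, with 1 bar per H3K27ac library. The stretch at the start reaches 100% in both libraries and the other 8 stay at or below 28.3%.

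No gap of 5 kb or more without replicated H3K27ac was found inside the upstream domain. The longest was 4.73 kb (131945503 to 131950232), which held a 251 bp piece of H3K27ac in replicate 1 alone and 609 bp of H3K4me1 in replicate 2 alone. The second domain had 2 such gaps, the 5.02 kb before the start peak and 5.78 kb from 132067265 to 132073041.

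The part of the window farthest upstream of ACPP was less marked than the upstream domain and ACPP. Which of the sections upstream of ACPP lie within CPNE4 was not determined here. In the 228.0 kb before the upstream domain there were 6 and 4 H3K27ac peaks over 8.32 and 6.57 kb, and 13 and 20 H3K4me1 peaks (counted by their middle) over 9.38 and 17.6 kb. H3K27ac thus covered 3.65 and 2.88% of this section and H3K4me1 4.12 and 7.74%, all above the genome shares of 2.48, 2.30, 2.46 and 3.80%. The widest replicated H3K27ac region there was chr3:131897669-131902270 (4602 bp). Replicated H3K4me1 lay on 93.9% of it. This included one of the 5 widest replicated H3K4me1 regions of the window, chr3:131899507-131903481 (3975 bp), of which 69.5% was acetylated and the rest extended past that region. Farther out, acetylated peaks of 1844 and 1625 bp began at chr3:131747786 and chr3:131747811, and peaks of 1108 and 680 bp at chr3:131755998 and chr3:131756124. The longest stretch of this section without H3K27ac was 107511 and 108249 bp. No acetylated region here was as wide as the widest of the upstream domain or of ACPP.

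Downstream of ACPP, 113.0 kb held 2 and 3 H3K27ac peaks and 3 and 4 H3K4me1 peaks. The H3K27ac peak of 2439 and 2809 bp at chr3:132135594-132138402 (both libraries merged) carried no replicated H3K4me1. A 352 bp peak of H3K4me1 replicate 2 touched its end. The last members inside the window were H3K4me1 peaks at 22.9 and 22.2 kb before its right edge, and the nearest ones outside lay 23.2 and 6.36 kb beyond it. On the left, the first members were 47.8 and 47.8 kb (H3K27ac) and 47.8 and 45.6 kb (H3K4me1) inside the edge. The nearest outside were 379.1 and 379.1 kb away for H3K27ac, and 29.6 and 5.43 kb for H3K4me1.

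Most members recurred between libraries, and none of those that did not was wider than 855 bp. Of the H3K27ac peaks, 28 of 38 in replicate 1 (73.7%, against 87.9% over the genome) and 37 of 45 in replicate 2 (82.2%, against 86.0%) overlapped a peak of the other library by at least 1 bp. Of the H3K4me1 peaks, 66 of 67 in replicate 1 (98.5%, against 88.3%) and 44 of 69 in replicate 2 (63.8%, against 68.7%) did so. The 10 and 8 H3K27ac peaks found in 1 library alone were at most 593 and 770 bp wide. H3K4me1 replicate 2 had 25 peaks of its own, with a median of 437 bp and a maximum of 855 bp, and 10 of them lay far upstream. By bases, 80.9% of the H3K27ac and 55.5% of the H3K4me1 covered in either library was covered in both, against 76.9 and 51.8% over the genome.

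The peaks of each mark were also counted by whether they met the other mark. A replicated H3K4me1 region overlapped 25 of 38 H3K27ac peaks of replicate 1 (65.8%, against 72.3%) and 26 of 45 of replicate 2 (57.8%, against 70.8%). A replicated H3K27ac region overlapped 56 of 67 H3K4me1 peaks of replicate 1 (83.6%, against 41.3%) and 47 of 69 of replicate 2 (68.1%, against 37.0%). The window was picked for its H3K27ac, so the last 2 shares are a description only. Merging gave 26 replicated H3K27ac regions and 41 replicated H3K4me1 regions in the window, of which 7 (26.9%) and 7 (17.1%) did not meet a replicated region of the other mark. Over the genome 26.5% of replicated H3K27ac regions and 52.9% of replicated H3K4me1 regions did not.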

How the data were processed

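For each immunoprecipitated library the authors deposited a list of peaks as other values than counts: starts and ends in bp and a peak name, with no height, enrichment or significance. Per the submitters' processing notes, bcl2fastq 2.17, Trimmomatic 0.33, Bowtie 1.1.2, MACS2 2.1.0 and build hg19 (GRCh37) were used; which step each served, the peak threshold and the control library were not given in the sources used here. Each list has its own smallest width and joining distance (221, 172, 191 and 232 bp wide for H3K27ac and H3K4me1 replicates 1 and 2), which affects peak numbers and breaks.

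Intervals were handled with Python 3.11.15 and numpy 2.4.6, and the functions were tested on simulated data. Autosomes and chromosome X were used, and positions are counted from 1. Shared means an overlap of at least 1 bp. Peaks were assigned to sections by their middle. The ACPP ends come from the definition of the locus, rounded to 1000 bp. Promoter sequences are RefSeq's (GRCh38.p14), and both genes matched by symbol or synonym. The regions named are those in or near ACPP, the 5 widest of each mark, the domains and their gaps. The locus, the lists and these rules were chosen with earlier results of these data known. Cell type markers could not be looked up, because they need start sites in hg19. The 3 kb, 10 kb and 20 kb limits and the 5 parts of the gene were set after seeing the data.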

Additional observations from a re-analysis of the deposited data

How the results depend on the processing

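Over 12 results and 64 alternatives, 47 values moved by less than the replicate SD (counts: within 1.5 times) and 17 moved by more. Leaving out 1 of 2 libraries always moves their mean by less than that SD. Such alternatives for lengths and gene shares are among the 47, were fixed in advance and show no stability. These lengths, shares, counts and ranks have no direction, so a reversal was not defined. The H3K27ac share of ACPP and its length at the start, whose SDs were very small, moved to 49.9% and 4.55 kb when all lists were set to 232 bp as minimum width and joining distance, and to 49.9% and 4.33 kb with the 54763 widest peaks of each list. That last setting gave 39.5 H3K4me1 peaks in the window in place of 68, with 35 recurring in place of 55, and a rank of 6 for the upstream domain. Windows of 1 and 5 kb on either side of the start gave 2.0 and 6.94 kb of H3K27ac and 0.818 and 2.46 kb of H3K4me1, which follows from their size. The domain ranked 3rd with regions joined within 5 kb and 21st by span. Joined within 20 kb, it took in ACPP, with 83.4 kb of H3K27ac and 53.2 kb of H3K4me1 per library and a rank of 2. Leaving out 1 replicate gave 50.3 to 72.9% for the share of the domain's H3K27ac that carries H3K4me1, the lowest without H3K4me1 replicate 2. No paired analysis was possible because the results come from no test. Stricter thresholds by q-value were not run, since the lists carry none. Depth is unknown, so no absence of a peak shows the absence of a mark.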
